A study of Mus musculus with 7 samples.

Results

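Neuroendocrine cells store peptide hormones in dense-core granules, and 8 genes of that machinery or of the cells that carry it were followed in single cells of the mouse thymus epithelium. They were Chga, Chgb, Scg2, Scg3, Pcsk1, Snap25, Insm1 and Stmn2, which are 8 of the 20839 genes listed in any of the 7 libraries, and they were named as a list with earlier results of these data known. Medullary thymic epithelial cells (mTECs) display genes of many peripheral tissues so that self-reactive T cells can be removed. The nuclear factor Aire drives part of that display, in small and differing sets of genes from cell to cell, whereas other epithelial cells of the medulla carry whole programmes of a peripheral cell type, thymic tuft cells among them. A granule gene can therefore be seen in a thymic cell in either setting, and which granule genes are found together in 1 cell is part of the description.

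In granule biology the granins come first. Chga, Chgb, Scg2 and Scg3 encode chromogranins and secretogranins, acidic proteins that aggregate and help to build the granule, and Chga is also abundant in the parathyroid chief cell. Pcsk1 encodes prohormone convertase 1, which cuts prohormones inside the granule, and Snap25 encodes a membrane SNARE protein used when vesicles fuse. Insm1 encodes a zinc finger transcription factor of developing endocrine cells and neurons, and Stmn2 encodes stathmin 2, a microtubule-destabilizing protein best known from neurons.

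The 7 libraries were droplet scRNA-seq of sorted EpCAM+ CD45- thymus cells, each from 3 pooled thymi of C57BL/6 mice, so that 1 library is 1 replicate. The Aire trace library came from 6-week-old Aire-CreERT2 mice with the R26-CAG-Stopfl-zsGreen allele, given 2 mg tamoxifen every other day for 10 days, in which Cre under control of Aire switches on ZsGreen permanently. The 2 control libraries came from mice given 3 intraperitoneal injections of 100 ug isotype control antibody, taken at week 2 (age 4 weeks) and week 10 (age 12 weeks). The 4 anti-RANKL libraries came from mice given 3 injections of 100 ug antibody against RANKL, a cytokine needed to make Aire-expressing mTECs, taken at weeks 2, 4, 6 and 10 (ages 4, 6, 8 and 12 weeks). Weeks 4 and 6 had no control library, and every treated time point was 1 library.

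The libraries held 8453 cells, with a median of 4299.5 to 16809 UMIs per cell by library. Of these, 8193 had no Ptprc UMI and a Pth value below 4 on the deposited scale (natural log of 1 plus the UMIs per 10000), and they are called epithelial below. Epcam was found in 75.8% to 97.9% and Krt8 in 94.2% to 99.3% of the epithelial cells of each library. They were divided into 3449 cells with Ccl21a above 4, the mark of a CCL21-producing mTEC, and, among the rest, 2074 cells with Aire at 0, 945 with Aire above 0 up to 1.5, and 1725 with Aire above 1.5. Median depth differed between these classes (7081, 5829, 12740 and 13011 UMIs), so shares of cells with a gene are given at a common depth of 2000 UMIs, with 172 shallower epithelial cells left out, and as counted where said so. The Aire 0 class is a mixture, since a shallow cell can miss Aire, and 10 tuft cell genes and 5 genes of the cortical epithelium were all higher there than in cells with Aire above 1.5. Barcodes occurring in more than 1 library numbered 50 of 8403. The study describes the mice as female. The Y-linked gene Ddx3y, however, was counted in 21.4% of the epithelial cells of the Aire trace library and in 0 cells of the other libraries. Xist was counted in 42.2% there and in 41.0% at week 10 of anti-RANKL, against 96.8% to 99.2% in the other 5 libraries. The part of these differences in the results was not tested.

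Of the 8 genes, only Chga, Insm1 and Stmn2 were found in more than 1000 epithelial cells (1373, 2069 and 1367 cells), with 3376, 6073 and 5485 UMIs. Snap25 was found in 259 cells, Chgb in 113, Scg2 in 68, Pcsk1 in 48 and Scg3 in 36. The granin UMIs were concentrated in few cells: 5 cells held 46.0% of the 842 Chgb UMIs and 5 cells held 34.9% of the 424 Scg2 UMIs, with up to 119 and 35 UMIs in 1 cell. For Insm1 the highest 5 cells held 1.55% of the UMIs and for Stmn2 3.70%. Scg3 and Pcsk1 were not listed at week 4 of anti-RANKL, and Chgb, Scg2, Scg3 and Pcsk1 were not listed at week 6, the 2 shallowest libraries. A gene present in fewer than 3 cells of a library was removed by the authors, and such a gene was taken as 0.

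The genes lie on 6 chromosomes and are not neighbours, apart from sharing chromosome 2. In the GENCODE annotation of mm10, Chga covers chr12:102554969-102565028, Chgb chr2:132781278-132795079, Snap25 chr2:136713453-136782428, Insm1 chr2:146221921-146225020, Pcsk1 chr13:75089826-75134861 and Stmn2 chr3:8509360-8561606 on the plus strand. Scg2 covers chr1:79434669-79440120 and Scg3 chr9:75643189-75684056 on the minus strand. Promoters from 250 bases before to 50 bases after the start of the gene were found for 5 of the genes in RefSeq (GRCm38.p6), for Chga, Chgb, Scg2, Scg3 and Pcsk1, and not for Snap25, Insm1 and Stmn2. The cyclic AMP response element, bound by CREB family factors, was searched for on both strands as its core TGACGT and as its full palindrome TGACGTCA, which contains the core on each strand. The core was in 4 of these 5 promoters, against 7.51% of all 32851 promoters of that table, and the palindrome was in 3 of 5, against 1.79%. The 30 bases around the first match are shown for the 4 promoters that had one, and the promoter of Scg3 had 0 matches. Whether the motif bears on which genes were found together was not tested. Each stretch runs 5′ to 3′ on the strand of the gene, and the capitals mark the motif.
Chga: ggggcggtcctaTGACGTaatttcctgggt
Chgb: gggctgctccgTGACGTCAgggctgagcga
Scg2: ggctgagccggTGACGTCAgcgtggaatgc
Pcsk1: ccaggtagatcTGACGTCAagagatggctt
These stretches are chr12:102554885-102554914, chr2:132781559-132781588, chr1:79440076-79440105 (minus strand) and chr13:75089768-75089797. Counted from the RefSeq start, the motif began at base -44 in Chga, -72 in Chgb, -68 in Scg2 and -78 in Pcsk1. In GENCODE, whose starts differ, the stretches of Chgb and Scg2 lie wholly in the 5′ untranslated part of the first exon and those of Chga and Pcsk1 lie outside the gene. The E-box CAGCTG was in 2 of the 5 promoters against 16.3% of all, and the TATA box TATAAA in 1 of 5 against 13.6%. A match is a run of letters and not a measured binding site, and these cells carry no measurement of factor binding.

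Cells with Ptprc above 0, the gene of the CD45 antigen against which cells were sorted, served as the level of free RNA. They numbered 233 and had a median of 10161 UMIs, against 8004 in epithelial cells. At 2000 UMIs, 6 of the 8 genes were detected in a higher share of epithelial than of Ptprc cells, and Chga (5.89% against 7.69%) and Chgb (0.617% against 1.75%) in a lower share. Over all epithelial cells, then, detection of Chga and Chgb was below that of the Ptprc cells. Stmn2 was detected in 8.41% of epithelial against 3.86% of Ptprc cells and Insm1 in 9.17% against 6.82%. The rarer genes were close to their level in Ptprc cells, with Scg2 at 0.425% against 0.408%, Scg3 at 0.145% against 0.103% and Snap25 at 0.820% against 0.679%. Pcsk1 was seen in 0 of 233 Ptprc cells, a count that sets an upper limit of 1.29% on the share of cells with a UMI. Single Ptprc cells held many UMIs of a member, with 78 of Chgb in 1 cell and 1198 of Chga in another, one of 2 Ptprc cells with Pth of 4 or more. Without those 2 cells Chga was detected in 6.87% of Ptprc cells, still above its epithelial share. In the 24 Ptprc cells with 2 T cell genes and no Epcam, chosen after the data were seen, Chga, Insm1 and Stmn2 were each found in 3 cells and the other 5 genes in 0 of 24, where the upper limit of the share is 12.5%. Those 24 cells had a median of 4701 UMIs. At 2000 UMIs they gave 5.52% for Chga, 0% for Chgb, 2.90% for Insm1 and 4.70% for Stmn2, and all 8 members had a higher share in epithelial cells. For Chga, Chgb and Insm1 the level in all Ptprc cells was thus the higher of the 2, and for Stmn2 it was the lower. Some of all the Ptprc cells held many UMIs of a member, and 1 of the 24 held 16 of their 18 Stmn2 UMIs.

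**Figure D1:**
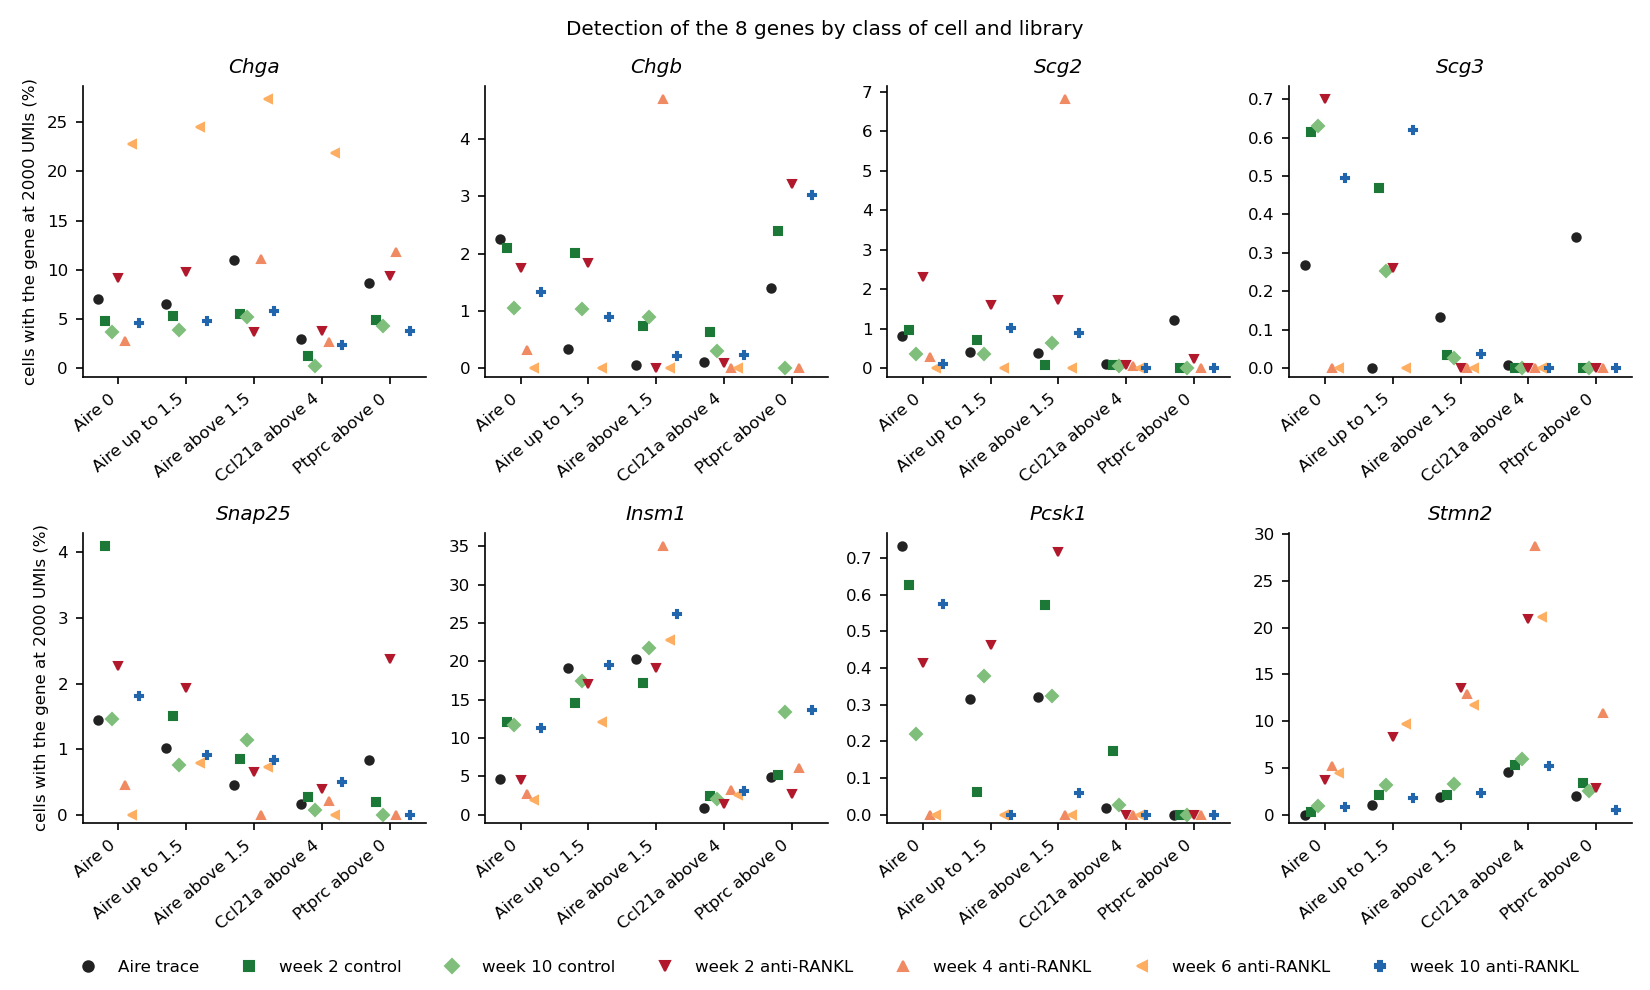
Share of cells with each gene at a depth of 2000 UMIs (vertical axis, percent, a scale of its own for each gene) in the 4 classes of epithelial cell and in cells with Ptprc above 0, with 1 point per library of at least 20 cells. Insm1 was highest with Aire above 1.5, from 17.1% to 35.1%, and Stmn2 was highest in Ccl21a above 4 cells of anti-RANKL weeks 2, 4 and 6, from 20.9% to 28.7%.

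Insm1 followed Aire. With Aire above 1.5, Insm1 was counted in 59.8% of cells (51.1% to 65.6% by library), with Aire up to 1.5 in 52.9%, with Aire at 0 in 14.0% (4.55% to 26.9%) and with Ccl21a above 4 in 7.13%. Levels are given as CPM, the UMIs of the gene per 1000000 UMIs summed over the cells of a class in a library. With Aire above 1.5 the level was 126.1 CPM in the Aire trace library, 101.7 and 139.4 in the controls of weeks 2 and 10, and 116.9, 234, 164.3 and 181 at weeks 2, 4, 6 and 10 of anti-RANKL. In Ccl21a above 4 cells the same libraries, in the same order, gave 8.80, 15.3, 13.8, 8.70, 20.7, 15.9 and 25.6 CPM. The classes did not overlap, and the lowest value with Aire above 1.5 was above the highest value of Ccl21a above 4 cells. At Aire 0 the levels were 30.5 CPM in the Aire trace, 89.9 and 88.0 in the controls, and 28.6, 21.0, 19.4 and 71.3 at weeks 2, 4, 6 and 10 of anti-RANKL. The Aire 0 cells thus fell apart by library, with both controls and week 10 of anti-RANKL high and the other 4 libraries low. At 2000 UMIs, Insm1 was detected in 21.7% of cells with Aire above 1.5, in 6.72% at Aire 0 and in 2.04% with Ccl21a above 4, against 6.82% of all Ptprc cells and 2.90% of the 24 strictly chosen ones. The Aire 0 class lay between these 2 levels and the Ccl21a class below both.

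Differences between classes were tested in limma on log2(CPM + 10) of the sums per library and class, with library as a block. Sums of at least 20 cells entered, which left out 1 (17 cells with Aire up to 1.5 at week 4 of anti-RANKL), and 16775 genes were tested, all 8 members among them. With this block, p-values measure how the class difference varied from library to library. The libraries also differ in genotype, treatment and age, so they are not replicates of 1 condition. P-values are Benjamini-Hochberg adjusted over all genes tested. Between cells with Aire above 1.5 and Aire 0 cells, 2 members were higher (18.1% of all genes were) and 3 were lower (33.3% of all genes were). Insm1 rose by 1.57 on the log2 scale (SE 0.23, adjusted p = 5.526e-06 in limma) and Stmn2 by 1.05 (SE 0.16, adjusted p = 1.213e-05), which with a Ccl21a limit of 5 in place of 4 was 0.46 (adjusted p = 0.0512). Chgb fell by 0.91 (adjusted p = 0.0157), Snap25 fell by 0.39 (adjusted p = 0.021) and Scg3 fell by 0.21 (adjusted p = 0.00542). The shares of members called lie near the shares of all genes called, and the median log2 difference of the 8 members, -0.09, was near that of all genes, -0.08. The 3 lower calls rest on few UMIs, and those of Chgb and Snap25 on single libraries. Without the Aire trace, or without week 2 or week 10 of anti-RANKL, Chgb had an adjusted p of 0.0752, 0.0932 or 0.0747 and Snap25 of 0.0588, 0.0616 or 0.0591, and without the week 2 control Snap25 had 0.0954. Scg3 had too few UMIs to be tested once week 2 of anti-RANKL or either control was left out, and kept its call without each of the other 4 libraries.

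With Aire up to 1.5 against Aire 0, Insm1 (1.10, SE 0.24, adjusted p = 0.00125 in limma) and Stmn2 (0.95, SE 0.17, adjusted p = 0.000183) were higher, 2 of 8 members against 10.2% of all genes. In cells with Pth at 0 Insm1 was higher by 0.77 (adjusted p = 0.115), and with means of the natural log values Stmn2 had an adjusted p of 0.0834. In limma 0 members were lower, against 20.3% of all genes, and at an unadjusted p under 0.05 the count was 1, Chgb (-0.83, adjusted p = 0.0505). Against Ccl21a above 4 cells, 4 members were higher with Aire above 1.5, where 25.5% of all genes were. These were Insm1 (2.65, SE 0.23, adjusted p = 2.478e-09), Scg2 (1.02, SE 0.38, adjusted p = 0.0267), Chga (1.00, SE 0.27, adjusted p = 0.00363) and Pcsk1 (0.22, SE 0.09, adjusted p = 0.0377). The Scg2 and Pcsk1 calls rest on single libraries. Without week 4 of anti-RANKL Scg2 was higher by 0.52 (adjusted p = 0.0648) and without either week 10 library its adjusted p was 0.0503 or 0.0557, while Pcsk1 had 0.13 and 0.0617 without the controls of weeks 2 and 10 and 0.178 without week 2 of anti-RANKL. Stmn2 was the 1 member that was lower, at -0.99 (SE 0.16, adjusted p = 2.436e-05), where 26.0% of all genes were lower. Chgb, Scg3 and Snap25 differed by 0.24, 0.03 and 0.29 with adjusted p of 0.533, 0.735 and 0.0784.

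**Figure D2:**
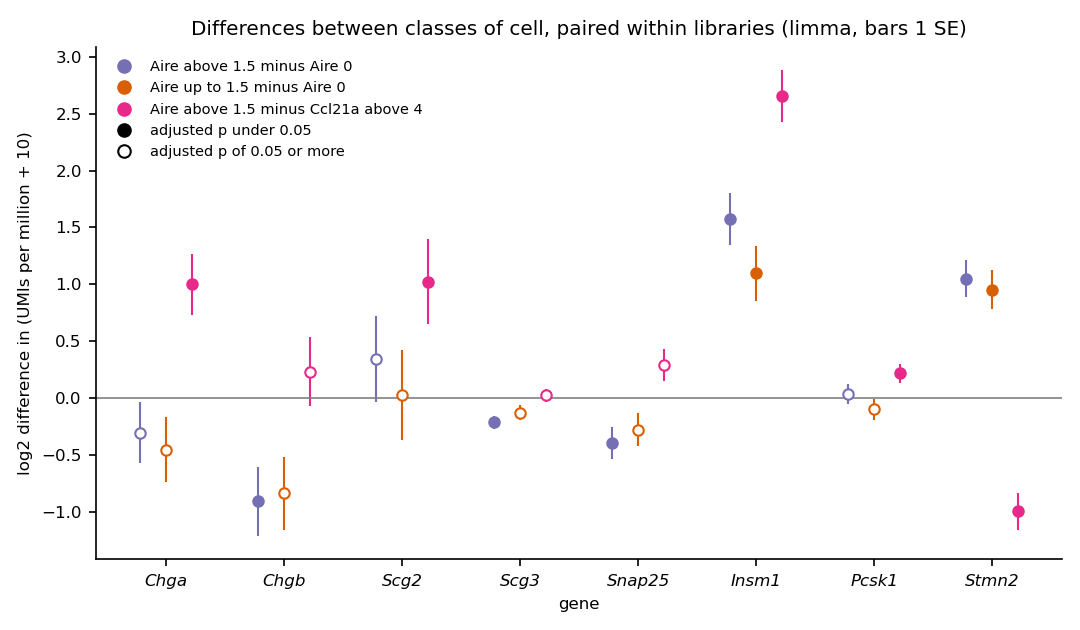
Differences in log2(CPM + 10) between classes of cell for the 8 genes (vertical axis), from the limma fit over libraries, with bars of 1 SE and filled points where the adjusted p was under 0.05. Insm1 lies above 0 in all 3 comparisons, and Stmn2 lies above 0 against Aire 0 cells and below 0 against Ccl21a above 4 cells.

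Chgb and Scg2 were the granins with many UMIs in few cells, most of them outside the Ccl21a class. Chgb at Aire 0 gave 32.4 CPM in the Aire trace, 21.4 and 6.29 in the controls of weeks 2 and 10, and 57.8, 5.93, 0 (not listed) and 32.3 at weeks 2, 4, 6 and 10 of anti-RANKL. With Aire above 1.5 it gave 0.527, 11.6, 13.2, 0, 10.9, 0 (not listed) and 1.13 in the same order. The classes overlapped over libraries, and the sum of a library could rest on 1 cell, since 13 cells of 8193 had 10 or more Chgb UMIs, of which 6 were at Aire 0. Scg2 had 15 such cells, of which 8 were at Aire 0, 5 had Aire above 1.5, 2 had Aire up to 1.5 and 0 were of the Ccl21a class. At Aire 0, Scg2 gave 10.96 CPM in the Aire trace, 9.83 and 3.43 in the controls, and 28.6, 5.02, 0 (not listed) and 0.557 at weeks 2, 4, 6 and 10 of anti-RANKL. With Aire above 1.5, Scg2 gave 2.64, 0.569, 7.37, 12.7, 163.2, 0 (not listed) and 9.97 CPM in the usual order of the libraries, and the high value of week 4 of anti-RANKL was 30 UMIs in 2 of 20 cells. In Ccl21a above 4 cells both granins were detected in few cells, and 50 of the 62 Chgb UMIs there were in 1 cell of the week 2 control. Chgb was counted in 12 of 3449 of them, 0.348% (exact Clopper-Pearson 95% interval 0.180% to 0.607%), and Scg2 in 8, 0.232% (0.1002% to 0.457%).

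Scg3, the granin that binds Chga, was found in 22 of 2074 cells at Aire 0, in 8 of 945 with Aire up to 1.5, in 5 of 1725 with Aire above 1.5 and in 1 of 3449 with Ccl21a above 4. Its highest count in an epithelial cell was 4 UMIs. Snap25 was found in 65, 50, 107 and 37 cells of these classes. At 2000 UMIs its order was that of Scg3, with 1.61% at Aire 0, 1.10% with Aire up to 1.5, 0.889% with Aire above 1.5 and 0.228% with Ccl21a above 4. The unthinned shares of Snap25 ran the other way over the Aire classes (3.13%, 5.29% and 6.20%), with the higher depth of the Aire-positive cells. Pcsk1 was found in 17, 8, 19 and 4 cells, and 46 of its 114 epithelial UMIs were in cells with Aire above 1.5 of the week 2 control. Intervals and floors here and elsewhere cover counting error only.

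Stmn2 stood apart from the granule genes in place and in time. In Ccl21a above 4 cells it gave 31.1 CPM in the Aire trace, 36.7 and 33.4 in the controls of weeks 2 and 10, and 238.1, 300.7, 196 and 36.4 at weeks 2, 4, 6 and 10 of anti-RANKL. Weeks 2, 4 and 6 of anti-RANKL were high and did not overlap with the other 4 libraries, among which week 10 of anti-RANKL lay. This grouping of the libraries was made from the values themselves. Stmn2 was counted in 262 of 684, 382 of 943 and 111 of 334 Ccl21a above 4 cells in the 3 high libraries. The counts were 89 of 874 in the Aire trace, 18 of 160 and 29 of 208 in the controls, and 23 of 246 at week 10 of anti-RANKL. Among cells that had it, the median was 2 to 4.5 UMIs by library, and 17.8%, 11.7% and 6.29% of all Ccl21a above 4 cells had 5 or more UMIs in the 3 high libraries, against 0.962% to 5.63% in the other 4. The top 5 cells held 6.93% to 16.2% of the Stmn2 UMIs in the high libraries, so the level there was spread over many cells.

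At week 2, where a control of the same age existed, Stmn2 was higher after anti-RANKL in all 4 classes. In Ccl21a above 4 cells it was 6.49 times the control (exact 95% interval of counting 5.26 to 8.10). The ratio was 8.03 (3.90 to 19.2) at Aire 0, 8.22 (6.06 to 11.2) with Aire up to 1.5 and 10.7 (8.47 to 13.5) with Aire above 1.5. At week 10 the ratio in Ccl21a above 4 cells was 1.09 (0.757 to 1.57), and with Aire above 1.5 it was 0.926 (0.696 to 1.23). These compare 2 libraries and have no replicate check. On the log2(CPM + 10) scale Stmn2 passed 4-fold at week 2 in the classes with Aire up to 1.5 (2.32), Aire above 1.5 (2.70) and Ccl21a above 4 (2.41), and not at Aire 0 (1.35). Of all genes tested, 0.914%, 0.403%, 0.168% and 0.715% passed 4-fold in either direction in these 4 classes. The other members showed no such pattern over all classes. Insm1 at Aire 0 was 0.319 times the control at week 2 (0.253 to 0.399) and 0.810 times at week 10 (0.636 to 1.03), while with Aire above 1.5 it was 1.15 times (0.956 to 1.37) and 1.30 times (1.18 to 1.42). Chga at Aire 0 was 2.59 times the control at week 2 (2.18 to 3.09) and 0.858 times at week 10 (0.594 to 1.24), and Pth in these cells was 184.3 CPM after anti-RANKL at week 2 and 8.78 in the control. In Ccl21a above 4 cells Chga had 46 UMIs at week 10 of anti-RANKL and 3 in the control, a ratio of 16.4 (5.29 to 82.6). As a ratio of CPM, Scg2 at week 2 was 10.7 times the control with Aire up to 1.5 (5.48 to 21.9) and 22.3 times with Aire above 1.5 (8.19 to 70.3), from 29 against 14 and 15 against 6 UMIs. All 29 of these UMIs were in 1 of 62 cells, and 14 of the 15 were in 1 of 61, so both ratios rest on single cells and their intervals do not cover the spread between cells. On the log2(CPM + 10) scale no member but Stmn2 passed 4-fold at week 2, and 0 members passed it at week 10, when 0.147%, 0.0141%, 0.160% and 0.362% of genes did.

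**Figure D3:**
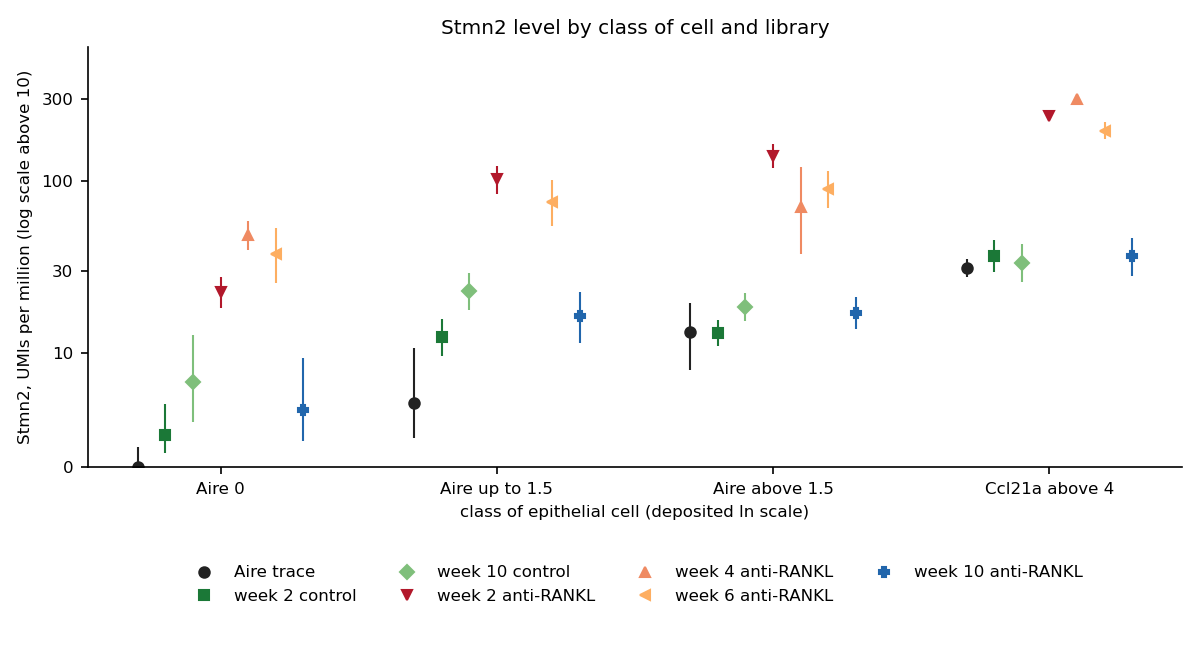
Stmn2 in CPM (vertical axis, logarithmic above 10) by class of epithelial cell and library, with exact 95% Poisson intervals for counting error only. In each class the anti-RANKL libraries of weeks 2, 4 and 6 lie above both controls, and week 10 of anti-RANKL lies near them.

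Taken over treatment as a whole, the 4 anti-RANKL libraries were compared with both controls in limma within each class, a comparison added after the data were seen. With Ccl21a above 4, Stmn2 was higher by 1.87 on the log2 scale (SE 0.65) with an unadjusted p of 0.0196 and an adjusted p of 0.564 in limma. In limma 0 of 4 tested members passed the adjusted threshold in that class, where 0.0240% of all genes did. Unadjusted, 3 of 4 passed a p of 0.05 in limma, as did 7.91% of all genes. These were Stmn2 and Chga (1.58), both higher, and Chgb (-0.83), which was lower. Without week 10 of anti-RANKL, a choice made from the values, Stmn2 was higher by 2.48 (adjusted p = 0.00297 in limma), and 0.268% of genes were called. Leaving out any other library left the adjusted p between 0.607 and 0.975, where the fits without a control have 1 control library, assumed to vary like the anti-RANKL libraries. Over weeks 2 and 10 alone, with week as a block (2 libraries of each kind, a fit chosen after the data were seen), Stmn2 was higher by 1.25 (adjusted p = 0.918 in limma). At Aire 0, 0 of 6 members passed in limma (0% of all genes). Unadjusted, 2 of 6 did, Insm1 (-1.27) and Stmn2 (1.19), where 6.23% of genes did. With Aire up to 1.5, 0 of 6 passed in limma (0% of all genes) and 1 of 6, Chga (1.14), passed unadjusted, where 2.38% did. With Aire above 1.5, 0 of 7 passed in limma (0% of all genes) and 2 of 7, Chgb (-0.86) and Stmn2 (1.56), passed unadjusted, where 3.70% did.

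Pth, the parathyroid hormone gene, was counted in many epithelial cells of some libraries, and whether as free RNA or as their own transcript was not tested. It differed between classes: Pth was higher with Aire above 1.5 than at Aire 0 by 0.56 on the log2 scale (SE 0.14, adjusted p = 0.00177 in limma) and than in Ccl21a above 4 cells by 0.57 (SE 0.14, adjusted p = 0.00156). In the controls it was 30.6 and 13.2 CPM with Aire above 1.5 and 8.78 and 0 CPM at Aire 0. Pth in Ccl21a above 4 cells was 123.4 CPM in the Aire trace, 185.5, 120.8 and 810.2 at weeks 2, 4 and 6 of anti-RANKL, and 1.59 to 6.45 in the controls and at week 10 of anti-RANKL. The 29 cells with Pth of 4 or more, 2 of them with Ptprc, held 9 Stmn2 UMIs in 3 cells. Among Ccl21a above 4 cells with no Pth UMI, Stmn2 was counted in 30.5%, 38.4% and 25.0% at weeks 2, 4 and 6 of anti-RANKL and in 11.7% and 14.2% in the controls. Among those with Pth the shares were higher at these 3 times, 39.7%, 43.2% and 33.9%. Stmn2 in the Ptprc cells was highest in 2 of these libraries, with 142.7 CPM in 24 cells at week 4 and 79.9 CPM in 11 cells at week 6, against 17.5 CPM at week 2, 52.0 and 37.1 in the controls, 18.4 in the Aire trace and 5.59 at week 10 of anti-RANKL. Single cells held most of it, 14 of 18 UMIs at week 4 and 6 of 10 at week 6. Of the 6 week 4 cells with 2 T cell genes and no Epcam 0 had Stmn2, which allows a share of up to 50%. Such cells with Stmn2 numbered 0 of 4, 1 of 1 and 1 of 3 at weeks 2, 6 and 10 of anti-RANKL. In the controls they were 1 of 2 at week 2, with 16 UMIs, and 0 of 3 at week 10, and in the Aire trace 0 of 5. At 2000 UMIs Stmn2 was detected in 10.9% of Ptprc cells at week 4 and 28.7% of Ccl21a above 4 cells, and at week 6 in 21.4% of Ptprc cells and 21.2% of Ccl21a above 4 cells. By CPM the Ccl21a class was above the Ptprc cells in both libraries, at 300.7 (exact 95% interval of counting 285.5 to 316.5) against 142.7 (84.6 to 225.5) at week 4 and 196.0 (174.8 to 219.2) against 79.9 (38.3 to 146.9) at week 6. The part of free RNA in the Stmn2 difference was not tested.

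Chga was the member tied to Pth. In the 29 Pth cells it was found in 26, with a median of 322 and up to 1836 UMIs, and made up 33384 CPM, while Chgb, Scg2, Scg3 and Pcsk1 were found in 0 of them and Snap25 and Insm1 in 1 each. Gcm2, the transcription factor that specifies the parathyroid, was found in 18 of the 29 and Casr, the calcium-sensing receptor, in 8. Outside these cells Chga was found in 22.8% of Aire 0 cells at week 6 of anti-RANKL at 2000 UMIs, against 2.797% to 9.16% in the other libraries. Pth was counted in 93.4% of the epithelial cells of the week 6 library. In Ccl21a above 4 cells there were 0.124 Chga UMIs for each Pth UMI in the Aire trace (95% interval 0.103 to 0.149) and 0.109 (0.0922 to 0.128), 0.113 (0.0867 to 0.146) and 0.141 (0.120 to 0.165) at weeks 2, 4 and 6 of anti-RANKL. In the Pth cells of the same libraries the ratios were 0.181, 0.134, 0.0865 and 0.111. The interval of the class thus lay below the ratio of the Pth cells in the Aire trace and at week 2, and above it at week 6 and, narrowly, at week 4. In the other 3 libraries the class held few UMIs of either gene, with ratios of 1.12 and 1 in the controls of weeks 2 and 10 and 5.75 (95% interval 2.69 to 14.1) at week 10 of anti-RANKL, where 46 Chga UMIs stood beside 8 Pth UMIs.

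At Aire 0 Chga gave 54.3 CPM in the Aire trace, 59.7 and 38.3 in the controls, and 154.9, 31.5, 133.3 and 32.8 at weeks 2, 4, 6 and 10 of anti-RANKL. In the controls and at week 10 of anti-RANKL Pth in the same cells was 8.78, 0 and 5.01 CPM, so Chga there was present with little Pth. The Aire 0 cells held 0.374 Chga UMIs per Pth UMI in the Aire trace (95% interval 0.299 to 0.465), 0.840 (0.753 to 0.937) at week 2 of anti-RANKL and 0.297 (0.224 to 0.391) at week 4. At week 6 they held 0.164 (0.133 to 0.201), the value nearest to that of the Pth cells of its library. With Aire above 1.5 the ratios were 0.466 in the Aire trace, 1.20 and 2.67 in the controls, and 0.0868, 0.357, 0.199 and 1.61 at weeks 2, 4, 6 and 10 of anti-RANKL. Ratios above that of the Pth cells were thus seen with and without Aire. At week 2 of anti-RANKL the interval with Aire (0.0528 to 0.136) held the ratio of the Pth cells, and differences between the classes in this ratio were not tested. Of the 58 epithelial cells with 10 or more Chga UMIs, 24 were at Aire 0, 9 had Aire up to 1.5, 22 had Aire above 1.5 and 3 had Ccl21a above 4.

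**Figure D4:**
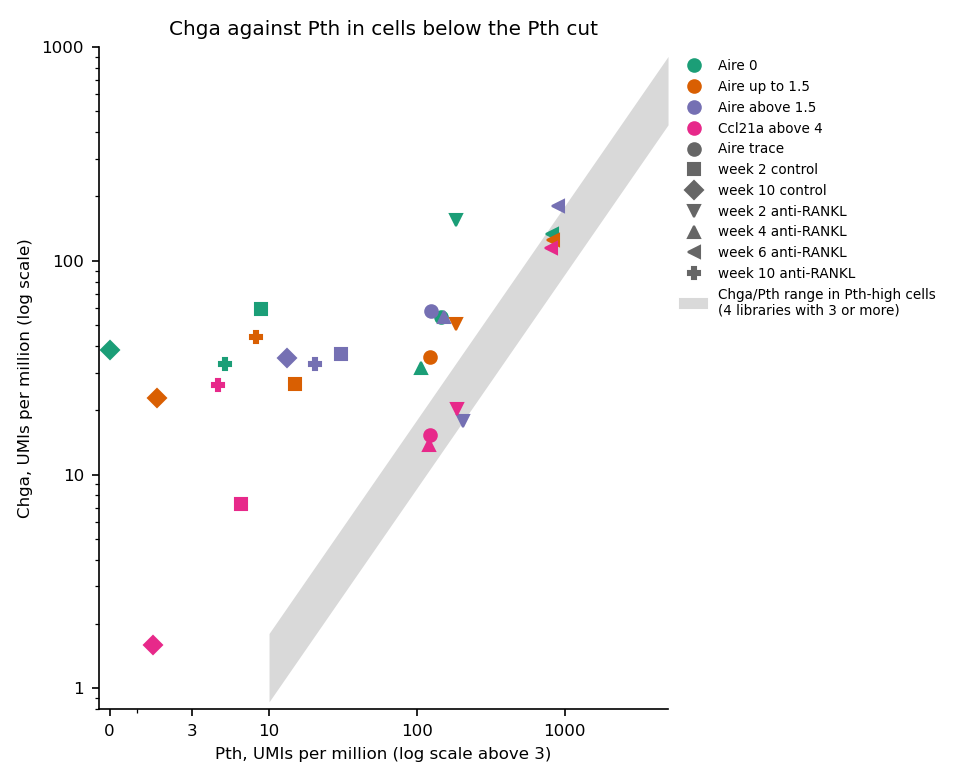
Chga against Pth, both in CPM (vertical axis logarithmic, horizontal axis logarithmic above 3), in the 4 classes (colours) of each library (shapes); the grey band spans the Chga to Pth ratios of the Pth cells, 0.0865 to 0.181, in the 4 libraries with at least 3 of them. Ccl21a above 4 cells of those 4 libraries lie in the band, which spans libraries and not the ratio of each, and the Aire 0 cells of the controls and of week 10 lie far above it.

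Members were found in the same cells more often than their own frequencies give. With detection taken as independent within each library and class at 2000 UMIs, the 28 pairs were observed 2.03 times as often as independence gives, and 25 of 28 pairs were above 1. The 21 pairs without Stmn2 gave a ratio of 2.99 and all 21 were above 1. Scg2 with Scg3 had the highest ratio (22.3), followed by Chgb with Scg2 (17.1) and Chgb with Snap25 (15.6). As counted, without thinning, 21 cells held both Chgb and Scg2 where 1.75 were expected, and 40 held both Chgb and Snap25 where 5.97 were expected. Pcsk1 with Chgb was in 11 cells where 1.21 were expected.

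Insm1 paired less sharply, with ratios of 1.52 with Chga, 2.15 with Pcsk1, 2.38 with Scg2, 2.72 with Chgb, 2.92 with Snap25 and 2.98 with Scg3. The 7 pairs with Stmn2 gave 1.04 together, from 0.666 with Chgb to 1.55 with Snap25. By library the ratio over all pairs was 2.91 in the Aire trace, 2.59 and 1.62 in the controls, and 3.34, 1.69, 0.939 and 2.21 at weeks 2, 4, 6 and 10 of anti-RANKL. Week 6, the library with Pth in most cells and with 4 of the genes not listed, was the exception at no excess.

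**Figure D5:**
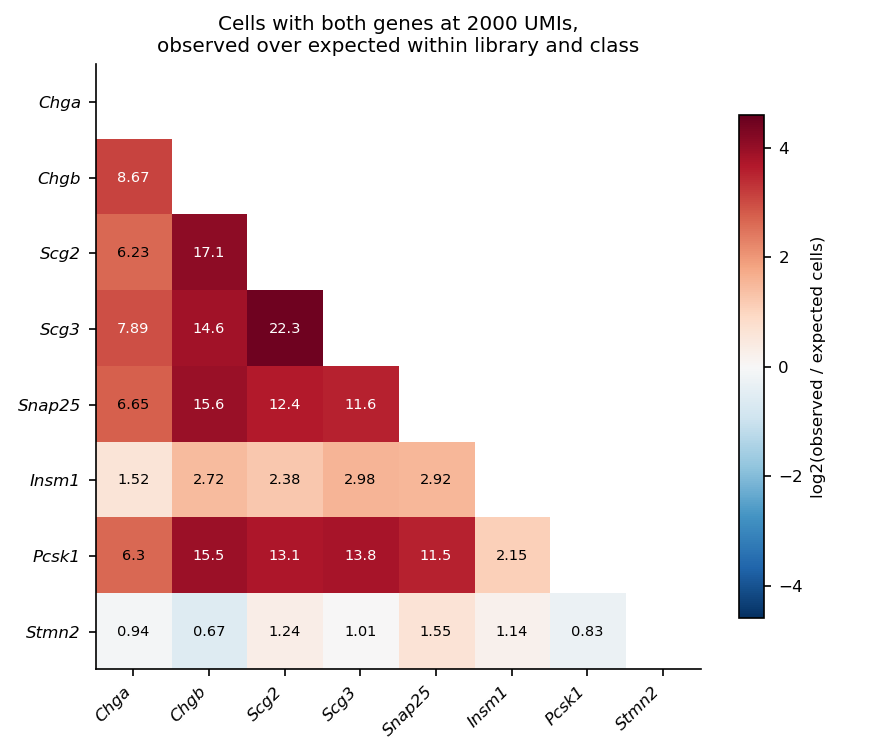
Observed over expected number of cells with both genes of a pair, at 2000 UMIs and with the expectation taken within library and class; each square carries the ratio and is coloured by its log2. The granin, Snap25 and Pcsk1 pairs lie between 6.23 and 22.3, pairs with Insm1 between 1.52 and 2.98, and pairs with Stmn2 between 0.666 and 1.55.

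The share of epithelial cells with 2 or more members at 2000 UMIs was 1.05% in the Aire trace, 2.51% and 2.09% in the controls (mean 2.299%, n = 2), and 2.93%, 2.17%, 4.65% and 2.58% at weeks 2, 4, 6 and 10 of anti-RANKL. Week 6 of anti-RANKL was highest and the Aire trace lowest. At week 6 Chga was detected in 23.1% and Stmn2 in 13.7% of epithelial cells, and the pair ratio was 0.939. In Ptprc cells the share was 2.55% over all libraries, and in epithelial cells it was 2.40%. As counted at full depth the shares ran from 7.53% at week 4 of anti-RANKL to 20.9% in the week 2 control, the deepest library.

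Cells with 4 or more members were rare and had a wider neuroendocrine make-up. There were 59 in 8193 (0.720%, exact 95% interval 0.549% to 0.928%), with up to 7 members in a cell and 23 cells with 5 or more. They numbered 33 of 2074 cells at Aire 0 (1.59%), 9 of 945 with Aire up to 1.5 (0.952%), 11 of 1725 with Aire above 1.5 (0.638%) and 6 of 3449 with Ccl21a above 4 (0.174%). By library there were 8 in the Aire trace, 18 and 5 in the controls, and 15, 1, 1 and 11 at weeks 2, 4, 6 and 10 of anti-RANKL. Each library had at least 1, and the 2 shallowest libraries had 1 each. Their median depth was 8629 UMIs against 8002.5 in other epithelial cells, and 6903 in the 33 at Aire 0, but the 11 with Aire above 1.5 had a median of 22907. Epcam and Krt8 were found in 59 of 59. Among Ptprc cells 4 of 233 had 4 or more members, 1.72% (0.470% to 4.34%), a share above the epithelial 0.720%.

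Since members chose these cells, the share of each member in them is a description. They held 0.828% of all epithelial UMIs but 59.9% of the Scg2 UMIs, 53.3% of those of Scg3, 51.0% of those of Chgb, 33.0% of those of Snap25, 25.4% of those of Pcsk1 and 18.3% of those of Chga. For Insm1 the share was 3.39% and for Stmn2 0.492%, below the cells' share of all UMIs. Insm1 was nevertheless found in 56 of the 59, Chga in 57, Snap25 in 47, Chgb in 40, Scg2 in 25, Scg3 in 17, Pcsk1 in 14 and Stmn2 in 11.

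Other genes of the secretory pathway were raised in the 59 cells. A list of 37 other genes of granules and exocytosis had 30 at a level of at least 2-fold that of the other epithelial cells, where 14.9% of all genes with 50 or more UMIs were. As counted, Resp18, a granule protein, was in 78.0% of the 59 cells against 13.2% of the others, and Scg5, a chaperone of prohormone convertase 2, in 78.0% against 20.8%. Cplx2, a regulator of vesicle fusion, was counted in 64.4% against 9.42%. Ddc, the decarboxylase of the serotonin and dopamine pathways, was counted in 45.8% against 2.69%. At 2000 UMIs these 4 genes were in 54.2% against 5.35%, 46.05% against 6.51%, 35.2% against 2.49% and 22.1% against 0.75%. Of 15 tested transcription factors of neuroendocrine cells 10 were at least 2-fold higher. With the 50 UMIs required in the other cells alone, a filter chosen after the data were seen that left out Fev, these were 9 of 14, where 14.8% of all genes were higher, and the granule list was again 30 of 37. Prox1 was in 44.1% against 2.78% and St18 in 40.7% against 1.88% as counted. At 2000 UMIs they were in 14.6% against 0.789% and 16.2% against 0.581%. Further factors of the list, Myt1, Rfx6 and Nkx2-2, which specify islet and gut endocrine cells in development, had under 50 UMIs and are not among the 15; nor are Neurod1, Pax4 and Lmx1a, which were found in 0 of the 59 cells. Myt1l, which is among the 15, was also found in 0 of them. Myt1 was in 10 of 59 cells against 13 of 8134, Rfx6 in 8 against 21 and Nkx2-2 in 6 against 4. The neuronal list had 11 of 16 genes 2-fold higher, led by Elavl4, an RNA-binding protein, in 42.4% against 0.443% as counted. At 2000 UMIs Elavl4 was in 17.4% against 0.142%. The peptide hormone list had 7 of 25 genes 2-fold higher. Among them Iapp, the islet amyloid polypeptide, was in 44.1% against 8.09% as counted (35.05% against 2.89% at 2000 UMIs). Ghrl, ghrelin, was in 11.9% against 0.934% as counted (6.90% against 0.343% at 2000 UMIs). Other hormone genes were lower in the 59 cells, such as Cck (5.64 against 43.8 CPM), Gal (5.64 against 51.9) and Adm (94.5 against 268.1). These hormone genes were chosen for naming after their values were seen, as were the other examples of this paragraph. In the tuft (10 tested), T cell (9), cTEC (5), medulla (5) and cycling (4) lists 0 genes were 2-fold higher, in the epithelium list 1 of 7 was, Cldn4, a tight junction gene, at 433.1 against 106.3 CPM, and in the parathyroid list 1 of 2, Casr, in 2 of the 59 cells.

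The same description was made within Aire 0 cells alone, at 1 level of Aire. The 33 cells with 4 or more members were set beside the other 2041, and 24 of 26 granule and exocytosis genes, 9 of 11 transcription factors and 8 of 9 neuronal genes were at least 2-fold higher, where 15.9% of all 12441 genes were. With the 50 UMIs required in the other cells alone these were 17 of 19, 8 of 10 and 6 of 7, where 15.4% of all genes were. The hormone list had 6 of 20 and the tuft list 0 of 10. Trpm5, the channel that marks tuft cells, was found in 6.78% of the 59 cells and in 6.65% of the others.

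Between cells with Aire above 1.5 and Aire 0 cells, 13 of the 37 granule and exocytosis genes were higher and 11 were lower in limma, where 18.1% of all genes were higher and 33.3% lower. Cadps, which primes granules for release, rose by 2.46 on the log2 scale (SE 0.30, adjusted p = 5.314e-07), Syt1, a calcium sensor of fusion, rose by 1.36, and Slc18a1, a vesicular amine transporter, by 0.95, while Cpe, carboxypeptidase E, fell by 1.17 (adjusted p = 8.229e-06). The median over that list was 0.11 against -0.08 over all genes. In the transcription factor list 2 of 15 were higher and 8 were lower, and Isl1, Prox1 and St18 fell by 1.14, by 0.95 and by 0.74. In the hormone list 13 of 25 were higher and 0 were lower, among them Calcb (3.19), Calca (2.99), Cck (1.91) and Npy (1.34), and a median of 0.89. The neuronal list had 3 of 16 higher and 1 lower. In the other comparisons the granule list had 5 higher and 7 lower with Aire up to 1.5 against Aire 0 (10.2% and 20.3% of all genes), and 21 higher and 2 lower with Aire above 1.5 against Ccl21a above 4 (25.5% and 26.0% of all genes). The hormone list had 4 higher and 1 lower, and 20 higher and 1 lower, in these 2 comparisons.

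The ZsGreen reporter of the Aire trace library is switched on in cells that use Aire during labelling and stays on in their descendants. Its transcript was counted in 89.9% of cells with Aire above 1.5, 82.4% with Aire up to 1.5, 55.1% at Aire 0 and 37.2% with Ccl21a above 4, but also in 63.8% of Ptprc cells. At 2000 UMIs the shares were 56.6%, 47.1%, 31.9% and 11.2%, and 28.9% of Ptprc cells. Of the 69 Ptprc cells of this library only 5 had 2 T cell genes and no Epcam. The set was thus not shown to be free of epithelial cells. Whether a counted ZsGreen transcript was a cell's own or free RNA was not tested. The median depth was 7818 UMIs at Aire 0 and 12350 in the Ptprc cells. Of the Aire 0 cells, 11 of 125 with and 6 of 102 without ZsGreen had 2 or more members (8.80% and 5.88%), or 3.04% and 2.22% at 2000 UMIs. Cells with 4 or more members numbered 4 and 2. Insm1 was found in 21 of 125 and 7 of 102, Chgb in 7 and 3, Pcsk1 in 3 and 2 and Scg2 in 2 and 0. Stmn2 was found in 0 of 125 and 0 of 102, where the upper limits are 2.40% and 2.94%. There was 1 such library, so no test was made.

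Among the 10 genes whose detection was most like that of 2 or more members, over the 8193 epithelial cells and by the phi coefficient, were Syt1 (0.249) and Cdx1 (0.247), and also Dleu7, Rap1gap, Laptm5, Spock3, Calcb, Snx8 and Utf1 (0.230 for the last). Insm1 was most like Cdx1 (0.513), an intestinal homeobox gene, and Aire (0.481). Scg3 was most like Elavl4 (0.273) and Cpn1 (0.250), Scg2 was most like Cpn1 (0.254) and Rimbp2 (0.218), and Chgb most like Car8 (0.303) and Kcnk3 (0.296). Snap25 and Pcsk1 were both most like Stxbp5l (0.261 and 0.150). Chga was most like Pth (0.150), and Stmn2 most like Gm21541 (0.245) and Ccl21b.1 (0.240), a feature of the near-identical Ccl21 family whose members can share reads. These values have no p, and cells of the same library share its depth.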

How the data were processed

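Droplet scRNA-seq of 7 libraries was analysed. The authors sequenced 3 pooled thymi per library, counted UMIs with Cell Ranger 2.2.0 on mm10-1.2.0 (ZsGreen added for the Aire trace), and in Seurat 2.3.4 kept genes present in at least 3 cells and cells with 200 to 7500 genes and at most 10% mitochondrial UMIs. Values were deposited as the natural log of (1 + UMIs per 10000); the methods name a scale factor of 1000, but every cell summed to 10000. Whole UMIs were recovered in every cell (tolerance 0.001). No doublet caller was run, and leaving out the 5% of cells with most UMIs was an alternative. Tables that combine libraries were not used.

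Members and gene lists were chosen with earlier results of these data known. Detection at 2000 UMIs is the probability, without replacement, that a cell drawn down to that depth keeps a UMI. Sums per library and class (at least 20 cells, genes with at least 50 UMIs) were tested in limma 3.58.1 (R 4.3.3) on log2(CPM + 10), where CPM is UMIs per 1000000, a scale that understates changes of low genes, with library as a block. The fits were tested on simulated data. Treatment was compared in limma within classes. Intervals are exact at 95%, and a count of 0 allows 3 cells. All members were named, with up to 4 genes of each list by size of change and, by phi, 10 genes like the joint pattern and 2 like each member. Some genes that this rule names are not reported here. Python 3.11.15 was used.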

Additional observations from a re-analysis of the deposited data

How the results depend on the processing

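The number of members called higher kept within 1.5 times of its main value except in the following cases. Between Aire above 1.5 and Aire 0 it was 1 in place of 2 with a Ccl21a limit of 5. Between Aire up to 1.5 and Aire 0 it was 1 in place of 2 in cells with Pth at 0 and with means of the natural log values. Against Ccl21a above 4 cells it was 2 in place of 4 in cells with Pth at 0 and with an Aire limit of 2, and it was 2 to 4 with 1 library left out (2 without the week 10 control). The mean share of control cells with 2 or more members, 2.299%, was 4.86% at 4000 UMIs, 16.7% without thinning, 1.31% without Chga, and 2.09% to 2.51% with 1 control. The pair ratio of 2.03 was 1.80 to 2.34 with 1 library left out. The Stmn2 difference after anti-RANKL was 1.57 to 2.48 with 1 library left out, and passed the threshold without week 10 of anti-RANKL (2.48). Values of single members and the shares of each library with 2 or more members were counted together. Of these, 395 kept their side of the threshold or stayed within their spread, 27 lost the call and 16 gained it. Another 14, all of them library shares without a test, moved by more than their spread. No called result was reversed, and the causes were not tested. Among differences that were not called the sign did change: Scg2 between Aire above 1.5 and Aire 0 was 0.34, but -0.57 with Pth at 0 and -0.33 in cells of at least 4000 UMIs, and Chga was -0.30, but 0.08 with means of the natural log values. With week as a replicate block over weeks 2 and 10, a paired fit chosen after the data were seen, the Stmn2 difference was 1.25 and not called. Library is already the block of the class comparisons. Depth limits Chgb, Scg2, Scg3 and Pcsk1 at weeks 4 and 6 of anti-RANKL, where the limit that 0 cells allows was up to 1.36% of Aire 0 cells.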

Other observations

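Insm1 was also found with Aire inside the Ccl21a class. Of Ccl21a above 4 cells it was counted in 5.84% of 3066 with Aire at 0, in 15.8% of 342 with Aire up to 1.5 and in 31.7% of 41 with Aire above 1.5, at median depths of 6831.5, 10193.5 and 6022 UMIs. At 2000 UMIs the shares were 1.82%, 3.15% and 9.30%. Snap25 was found in 4 of these 41 cells and in 27 of the 3066. Chga showed 20.7, 20.6 and 24.0 CPM over the same 3 levels of Aire.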
